A study of Zea mays with 12 samples.

Results

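The 7 genes described here are maize orthologs of abscisic acid (ABA) signaling genes, chosen by identifier from the hormone genes that the study named after its own comparisons of these libraries. All 7 are in the deposited table of 20168 expressed genes: *ZmPYL5* (GRMZM2G144224), *ZmAHG1* (GRMZM2G019819), *ZmEAR1* (GRMZM5G883632), *ZmCIPK1* (GRMZM2G170120), *ZmPUB18* (GRMZM2G315431), *ZmZFP7* (GRMZM2G082686), and *ZmICE1* (GRMZM2G173534). Since the study picked them for changing in these same libraries, their counts of calls and sizes of change against B73 are a description. They are no independent evidence of direction or size. The same holds for their counts of calls between mutants, since these comparisons share the mutant libraries. The names are those of the study. RefSeq names 2 of the 5 genes it matched by family, as PYL7 for *ZmPYL5* and PP2C8 for *ZmAHG1*, so receptor and phosphatase numbers differ between naming schemes.

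RNA was sequenced from laser-microdissected ear bract primordia, the suppressed leaves of the ear, captured early, before the meristem in the bract axil appeared. The 4 genotypes were the *tsh1-ref tsh4-rm* double mutant (*tsh1 tsh4*), the *tsh4-rm* mutant (*tsh4*), the *tsh1-ref* mutant (*tsh1*), and the wild-type inbred B73, with 3 biological replicates each and no treatment, from plants grown in a greenhouse. The *tsh1* gene encodes a GATA zinc-finger transcription factor and *tsh4* an SBP-box transcription factor. The *tsh1-ref* allele combines a *Mutator* insertion with a deletion that extends past *tsh1* into neighboring genes, *tsh4-rm* is a *Mutator* insertion in the first intron, and both were introgressed into B73, so that changes from linked donor sequence cannot be told apart from those of the mutations.

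Plants use ABA to restrain growth and to keep buds and seeds dormant. The hormone binds soluble receptors of the PYR/PYL family, and the occupied receptor inhibits type 2C protein phosphatases (PP2Cs) that otherwise hold SnRK2 kinases inactive. The released kinases phosphorylate bZIP transcription factors, which switch on ABA-responsive genes, while calcium-sensor kinases and ubiquitin ligases adjust the strength of the response.

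The libraries held 49481413 to 110703826 reads on the listed genes. Values are CPM, counts scaled to a common library size with TMM factors that even out composition. In *tsh1 tsh4*, *tsh4*, *tsh1*, and B73 bracts, *tsh1* was expressed at 0.521, 22.5, 0.527, and 67.4 CPM and *tsh4* at 60.1, 73.7, 1063, and 1323 CPM on average, so the libraries fit their labels. The bract marker *zyb15* was at 1033 to 1804 CPM in all 12 libraries, with no call in any mutant. The meristem genes *kn1* and *lg3*, neither at 0 in any library, summed to 180.3 to 342 CPM in *tsh1 tsh4*, 165 to 224 CPM in *tsh4*, 187 to 320.1 CPM in *tsh1*, and 307 to 376 CPM in B73, also with no call. Taken alone, *lg3* was at 76.9 to 144 CPM in the mutant libraries and 146 to 165 CPM in B73, without overlap. Its log2 fold change in *tsh4* was −0.74 (limma adjusted p = 0.0423), under the size threshold for a call. The *kn1* libraries of *tsh1 tsh4* and *tsh1* overlapped with those of B73. Those of *tsh4* did not, at 78.4 to 133 CPM against 157 to 211 CPM in B73 (log2 fold change −0.70, limma adjusted p = 0.258). The boundary genes *ba1* and *baf1*, also never at 0, summed to 47.5 to 71.4 CPM in *tsh1 tsh4*, 75.3 to 140 CPM in *tsh4*, 110 to 124 CPM in *tsh1*, and 160 to 184 CPM in B73. Both were called lower in *tsh1 tsh4* (log2 fold changes of −1.49 and −1.95), and *baf1* also in *tsh4* (−1.19). These boundary markers thus differed between genotypes, and *lg3* was lower in all mutants and *kn1* in *tsh4*. The genes described here also differed between genotypes, but not all with the pattern or direction of these markers. The part of these markers in the results was not tested.

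Each mutant was compared with B73 to ask which of the 7 genes changed with the *tsh1* mutation, the *tsh4* mutation, or both. The *tsh1* gene was itself lower in *tsh4* (log2 fold change −1.55, limma adjusted p = 0.00168). From *tsh4* against B73 alone, loss of *tsh4* and reduced *tsh1* therefore cannot be told apart. The *tsh4* mutation with *tsh1* already mutated is compared further below. In *tsh1 tsh4*, 6 of the 7 genes changed: *ZmPYL5*, *ZmEAR1*, and *ZmPUB18* fell and *ZmAHG1*, *ZmZFP7*, and *ZmICE1* rose, while *ZmCIPK1* was at 50.5% of its B73 mean without passing. In *tsh4*, 3 genes changed, with *ZmEAR1* and *ZmPUB18* lower and *ZmZFP7* higher. In *tsh1*, 2 genes changed, with *ZmCIPK1* lower and *ZmAHG1* higher. A gene was called when limma with Benjamini-Hochberg adjustment over all 20168 genes gave an adjusted p of at most 0.05 and the log2 fold change, on the log2(CPM + 0.1) scale that understates changes of weakly expressed genes, was at least 1 in size. Of all genes, 5.84% were called in *tsh1 tsh4* (2.69% higher and 3.15% lower), 3.81% in *tsh4* (2.04% and 1.77%), and 1.16% in *tsh1* (0.441% and 0.719%). The median size of the log2 fold change was 1.84 for the 7 genes in *tsh1 tsh4*, 1.22 in *tsh4*, and 0.57 in *tsh1*, against 0.22, 0.20, and 0.17 for all genes. The 3 comparisons share the B73 libraries. In bulk tissue, fewer cells that express a gene and less RNA per cell cannot be told apart.

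All 7 genes separated *tsh1 tsh4* from B73 without overlap of single libraries, 3 higher and 4 lower, where 10.4% and 12.2% of all genes did so. In *tsh4*, 2 genes were higher and 3 lower without overlap (11.7% and 11.9% of all genes). In *tsh1*, 2 were higher and 2 lower (5.75% and 7.42%). With 3 against 3 libraries, a 2-sided exact permutation test cannot go below p = 0.1, the value it gives to each of these separations.

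**Figure D1:**
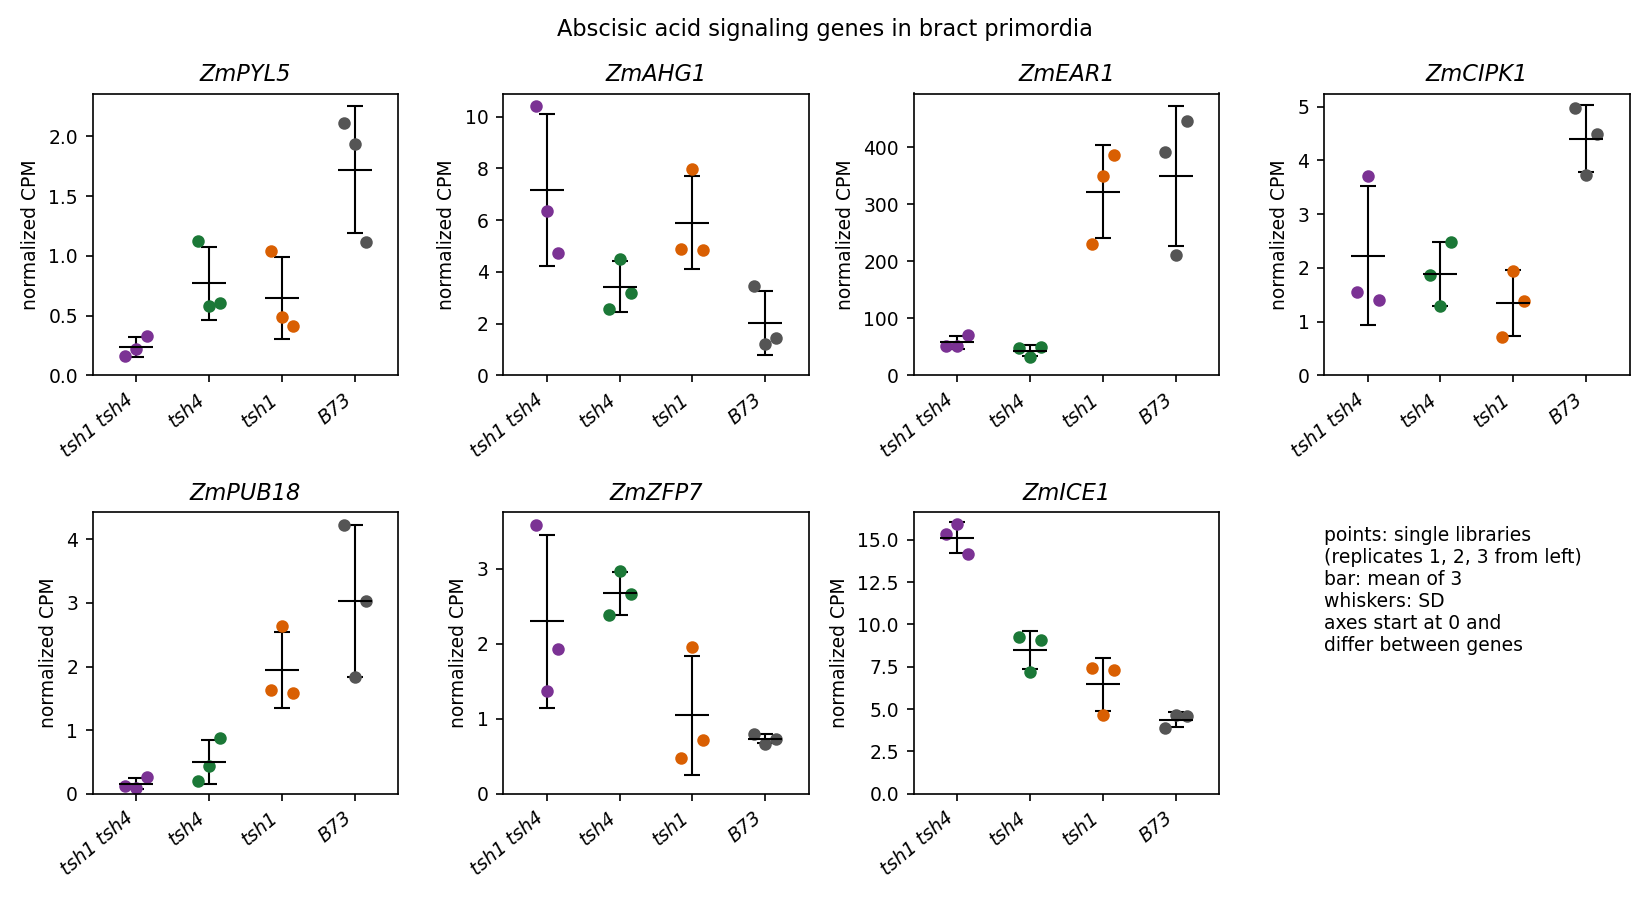
Normalized CPM of the 7 genes (vertical axes, each starting at 0 and scaled to its gene) in the 4 genotypes (horizontal axes). Points are single libraries, horizontal bars are means of 3 replicates, and whiskers are SD. *ZmEAR1* separates the 6 libraries with the *tsh4* mutation (31.6 to 70.7 CPM) from the 6 without it (211 to 445 CPM), and *ZmICE1* has the double mutant (14.1 to 15.9 CPM) above all other libraries.

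*ZmPYL5*, a receptor of the PYR/PYL family, had its lowest expression in the double mutant. It was at 0.163, 0.221, and 0.328 CPM in the *tsh1 tsh4* libraries, which correspond to 13, 14, and 19 reads. The single mutants had intermediate levels, 1.12, 0.582, and 0.605 CPM in *tsh4* and 1.04, 0.488, and 0.412 CPM in *tsh1*. The B73 libraries were at 2.11, 1.94, and 1.11 CPM, from 239, 110, and 65 reads. Every *tsh1 tsh4* library was thus below every library of the other genotypes, and the lowest B73 library was just below the highest *tsh4* library. In *tsh1 tsh4* the mean was 13.8% of that in B73, a log2 fold change of −2.41 (SE 0.37, limma adjusted p = 0.000341). The single mutants averaged 44.8% (*tsh4*) and 37.6% (*tsh1*) of the B73 mean, with log2 fold changes of −1.07 and −1.33 that did not pass (limma adjusted p = 0.129 and 0.0985).

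*ZmAHG1* is the ortholog of an *Arabidopsis* PP2C that restrains ABA responses in germinating seeds. It was expressed at 10.4, 6.33, and 4.74 CPM in *tsh1 tsh4*, 2.58, 4.51, and 3.18 CPM in *tsh4*, 4.88, 7.97, and 4.84 CPM in *tsh1*, and 3.46, 1.22, and 1.44 CPM in B73. All libraries with the *tsh1* mutation were above all libraries without it. *ZmAHG1* rose 3.51-fold in *tsh1 tsh4* (log2 fold change 1.84, SE 0.36, limma adjusted p = 0.00335) and 2.89-fold in *tsh1* (1.59, SE 0.36, adjusted p = 0.0358). In *tsh4* the log2 fold change was 0.83 (95% interval 0.06 to 1.60, limma adjusted p = 0.271), with a B73 library inside the range of *tsh4*. The deepest B73 library, replicate 1, was the highest of its genotype, and without it *ZmAHG1* was called in *tsh4* as well (1.27, limma adjusted p = 0.0417). The call in *tsh1* was lost without B73 replicate 2 or 3, without any *tsh1* replicate, or without *tsh4* replicate 3, with log2 fold changes of 1.32 to 1.72 and limma adjusted p-values of 0.0566 to 0.184. It was also lost by edgeR (adjusted p = 0.0685), with equal library totals (0.0556), with the 2 genotypes fitted alone (0.0604), and in the fit with a replicate block (0.0633).

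*ZmEAR1* is the ortholog of *Arabidopsis* *EAR1*, which enhances PP2C activity and so acts against ABA signaling. Its levels were 50.9, 52.1, and 70.7 CPM in *tsh1 tsh4* and 47.8, 31.6, and 49.6 CPM in *tsh4*. They were 230, 349, and 386 CPM in *tsh1* and 391, 211, and 445 CPM in B73. Expression was low in both genotypes that carry the *tsh4* mutation and overlapped fully between *tsh1* and B73. *ZmEAR1* fell to 16.6% of the B73 mean in *tsh1 tsh4* (log2 fold change −2.54, SE 0.27, limma adjusted p = 1.05e-05). In *tsh4* it fell to 12.3% (−2.98, SE 0.27, limma adjusted p = 4.34e-06), rank 61 by size of change among the 20168 genes. In *tsh1* the difference was −0.08 (95% interval −0.66 to 0.49, limma adjusted p = 0.985), an interval that leaves out changes as large as 2-fold.

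*ZmCIPK1* encodes a kinase of the family that is engaged by calcineurin B-like (CBL) calcium sensors. Its expression was 1.56, 3.71, and 1.40 CPM in *tsh1 tsh4*, 1.87, 1.29, and 2.48 CPM in *tsh4*, 0.713, 1.94, and 1.39 CPM in *tsh1*, and 4.98, 3.73, and 4.49 CPM in B73. All 9 mutant libraries were below all B73 libraries, although *tsh1 tsh4* replicate 2 came within 0.023 CPM of B73 replicate 2. *ZmCIPK1* fell to 30.6% of the B73 mean in *tsh1* (log2 fold change −1.73, SE 0.37, limma adjusted p = 0.0260). The other changes did not pass, with −1.08 in *tsh1 tsh4* and −1.22 in *tsh4* (SE 0.37 each, limma adjusted p = 0.0992 and 0.0789). Without *tsh1 tsh4* replicate 2, both were called, at −1.51 (limma adjusted p = 0.0151) in *tsh1 tsh4* and −1.22 (0.0328) in *tsh4*. The difference in *tsh4* was called also without *tsh1* replicate 1 (limma adjusted p = 0.0482), by DESeq2 (−1.22, 0.0295), and with the 2 genotypes fitted alone (0.00607). The call in *tsh1* was lost without any of the B73 replicates or without *tsh1* replicate 1 or 3 (−1.36 to −1.84, limma adjusted p = 0.0655 to 0.153) and in the fit with a replicate block (0.0611).

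*ZmPUB18* is the ortholog of an *Arabidopsis* U-box ubiquitin ligase that, with its paralog *PUB19*, limits ABA-triggered stomatal closure. It showed the largest change of the 7 genes in *tsh1 tsh4*, where the libraries had 0.125, 0.095, and 0.259 CPM, or 10, 6, and 15 reads. The *tsh4* libraries had 0.198, 0.432, and 0.879 CPM, the *tsh1* libraries 1.63, 2.63, and 1.58 CPM, and the B73 libraries 4.22, 1.83, and 3.03 CPM. All *tsh1 tsh4* and *tsh4* libraries were thus below all *tsh1* and B73 libraries. *ZmPUB18* fell to 5.27% of the B73 mean in *tsh1 tsh4* (log2 fold change −3.57, SE 0.41, limma adjusted p = 2.33e-05, rank 71 of 20168 by size) and to 16.6% in *tsh4* (−2.47, SE 0.41, adjusted p = 0.00137). In *tsh1* it was at 64.4% (−0.57, 95% interval −1.45 to 0.31, limma adjusted p = 0.802). With at most 15 reads per double-mutant library, the size of the change followed the pseudocount, with −4.20 at 0.01 and −1.75 at 1, both called.

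*ZmZFP7* encodes a C2H2 zinc-finger protein whose *Arabidopsis* relative *ZFP3* dampens ABA responses of germinating seeds. Levels were 3.59, 1.37, and 1.93 CPM in *tsh1 tsh4*, 2.38, 2.97, and 2.65 CPM in *tsh4*, 0.471, 1.95, and 0.716 CPM in *tsh1*, and 0.795, 0.670, and 0.736 CPM in B73. All libraries of *tsh1 tsh4* and *tsh4* were above those of B73, and *tsh1* replicate 2 lay among the double-mutant values while the other *tsh1* libraries did not. *ZmZFP7* rose 3.13-fold in *tsh1 tsh4* (log2 fold change 1.42, SE 0.40, limma adjusted p = 0.0353) and 3.64-fold in *tsh4* (1.73, SE 0.40, adjusted p = 0.0152). In *tsh1* the log2 fold change was 0.24 (95% interval −0.60 to 1.09), and without *tsh1* replicate 2 it was −0.29. The call in *tsh1 tsh4* was lost without any B73 replicate, without *tsh1 tsh4* replicate 1 or 3, or without *tsh4* replicate 3 (limma adjusted p = 0.0508 to 0.125), in the fit with a replicate block (0.0721), and with a pseudocount of 1 (log2 fold change 0.87). The call in *tsh4* was lost without B73 replicate 2 or 3 or *tsh4* replicate 2 or 3 (0.0506 to 0.0708).

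*ZmICE1* is the ortholog of an *Arabidopsis* bHLH transcription factor of the cold response that also binds the ABA regulator ABI5. It was expressed at 15.4, 15.9, and 14.1 CPM in *tsh1 tsh4*, 9.26, 7.19, and 9.06 CPM in *tsh4*, 7.43, 4.66, and 7.33 CPM in *tsh1*, and 3.87, 4.65, and 4.61 CPM in B73. The double mutant was above all other libraries, *tsh4* and *tsh1* overlapped, and the lowest *tsh1* library exceeded the highest B73 library by 0.007 CPM. *ZmICE1* rose 3.46-fold in *tsh1 tsh4* (log2 fold change 1.77, SE 0.20, limma adjusted p = 2.26e-05). In *tsh4* the 1.94-fold difference had an adjusted p of 0.0104 by limma but a log2 fold change of 0.94, under the threshold of 1, and without *tsh4* replicate 2 it was 1.05 and called. In *tsh1* the log2 fold change was 0.53 (limma adjusted p = 0.347).

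**Figure D2:**
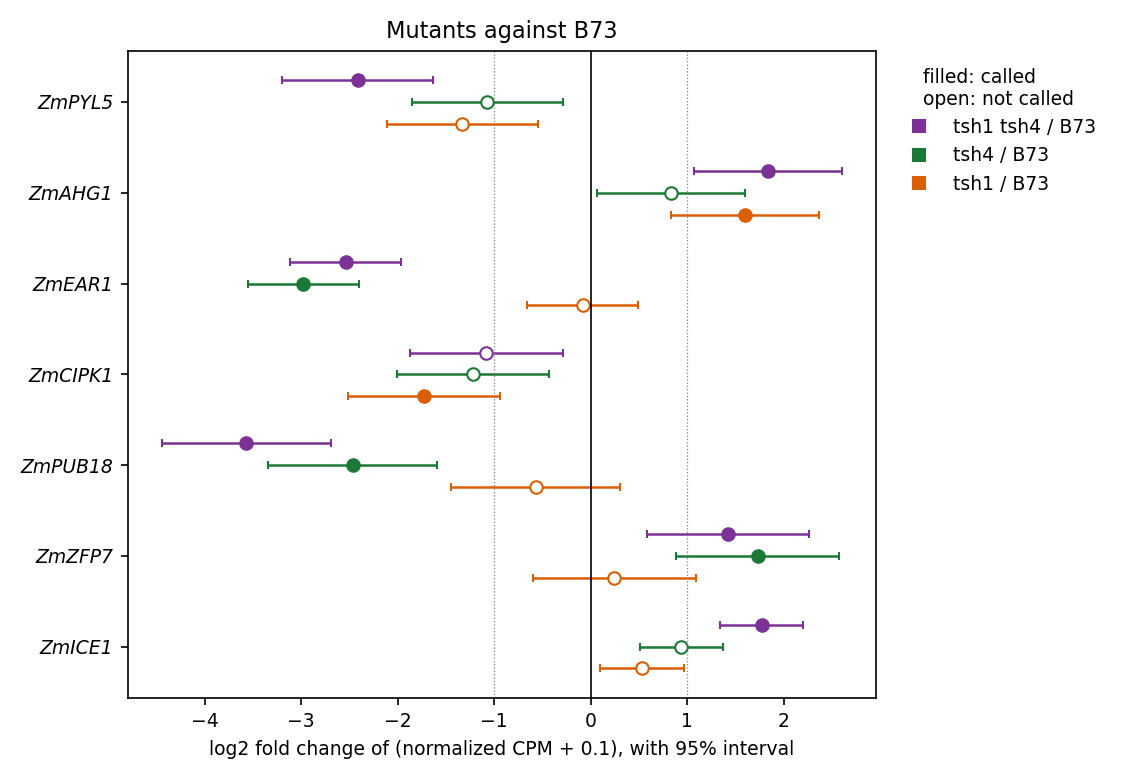
Log2 fold changes of the 7 genes on the log2(CPM + 0.1) scale (horizontal axis) in *tsh1 tsh4*, *tsh4*, and *tsh1* against B73, with 95% intervals from limma. Filled points were called, open points were not, and dotted lines mark a log2 fold change of 1 in either direction. *ZmEAR1*, *ZmPUB18*, and *ZmZFP7* were called in both genotypes with the *tsh4* mutation, and *ZmCIPK1* in *tsh1* alone.

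The mutants were then compared with each other, which shows whether the 7 genes differed between the 2 single mutants and what the second mutation added. In *tsh4* against *tsh1*, 3 genes were called, where 3.37% of all genes were (2.25% higher and 1.12% lower). *ZmEAR1* was 7.48-fold lower in *tsh4* than in *tsh1* (log2 fold change −2.89, SE 0.27, limma adjusted p = 4.51e-06) and *ZmPUB18* was 3.88-fold lower (−1.89, SE 0.41, adjusted p = 0.0123). *ZmZFP7* was 2.55-fold higher in *tsh4* (1.49, SE 0.40, limma adjusted p = 0.0450). The call of *ZmPUB18* was lost without *tsh4* replicate 1 (−1.47, limma adjusted p = 0.0730) or *tsh1* replicate 2 (−1.67, 0.0510). That of *ZmZFP7* was lost in 8 of the 12 fits that each left out 1 library, those without B73 replicate 2 or 3, without any *tsh4* or *tsh1* replicate other than *tsh1* replicate 2, or without *tsh1 tsh4* replicate 3 (1.09 to 1.56, limma adjusted p = 0.0604 to 0.240), and likewise by edgeR (1.36, adjusted p = 0.131), in the fit with a replicate block (limma adjusted p = 0.0995), after removal of genes averaging under 1 CPM (0.0593), and with a pseudocount of 1 (log2 fold change 0.91). Without overlap of libraries, 1 gene was higher and 3 were lower in *tsh4* than in *tsh1* (8.52% and 6.25% of all genes). *ZmAHG1* was lower in every *tsh4* library than in every *tsh1* library, but its log2 fold change of −0.76 did not pass (limma adjusted p = 0.460). The receptor and the kinase did not separate the single mutants, with log2 fold changes of 0.26 (95% interval −0.52 to 1.04) for *ZmPYL5* and 0.51 (−0.28 to 1.3) for *ZmCIPK1*.

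The effect of the *tsh4* mutation in the *tsh1* background was measured by *tsh1 tsh4* against *tsh1*. *ZmEAR1* fell 5.55-fold (log2 fold change −2.45, SE 0.27, limma adjusted p = 2.70e-05), *ZmPUB18* fell 12.2-fold (−2.99, SE 0.41, adjusted p = 0.000217), and *ZmICE1* rose 2.34-fold (1.24, SE 0.20, adjusted p = 0.00110). These 3 of 7 genes stand against 3.6% of all genes called (2.1% higher and 1.5% lower). *ZmZFP7* had a log2 fold change of 1.18 that did not pass (limma adjusted p = 0.145), although it was 1.71 without *tsh1* replicate 2 (adjusted p = 0.00718). *ZmPYL5* was lower in all *tsh1 tsh4* libraries, at 36.7% of the *tsh1* mean (−1.08, 95% interval −1.86 to −0.30, limma adjusted p = 0.149), and DESeq2 called it (−1.48, adjusted p = 0.0428). Without overlap, 1 gene was higher and 3 were lower in *tsh1 tsh4* than in *tsh1* (6.18% and 5.7% of all genes).

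The *tsh1* mutation in the *tsh4* background, *tsh1 tsh4* against *tsh4*, gave no call among the 7 genes by limma, where 0.674% of all genes were called (0.352% higher and 0.322% lower). Without adjustment, 4 of the 7 had a p below 0.05, *ZmPYL5*, *ZmAHG1*, *ZmPUB18*, and *ZmICE1*. DESeq2 on the recovered reads called 1 of them, *ZmPYL5*, and the quasi-likelihood test of edgeR called 0. *ZmPYL5* was at 30.8% of the *tsh4* mean in the double mutant (log2 fold change −1.34, 95% interval −2.12 to −0.56, limma adjusted p = 0.153). *ZmICE1* was 1.78-fold and *ZmAHG1* 2.09-fold higher in the double mutant (0.83 and 1.0, limma adjusted p = 0.0904 and 0.414). In these 2 genes and *ZmEAR1* the double mutant was above *tsh4* without overlap (4.35% of all genes), and *ZmPYL5* was below it without overlap (5.47%). For *ZmEAR1* the difference was 0.44 (95% interval −0.13 to 1.02).

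**Figure D3:**
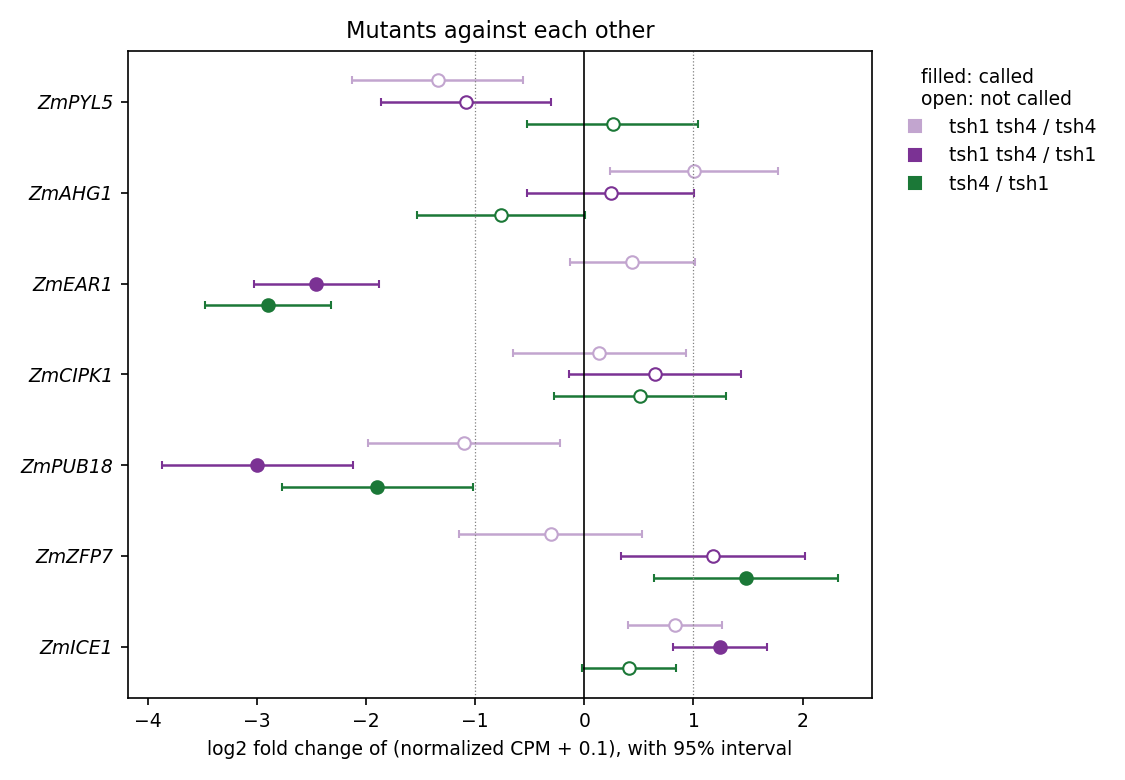
Log2 fold changes on the log2(CPM + 0.1) scale (horizontal axis) for *tsh1 tsh4* against *tsh4*, *tsh1 tsh4* against *tsh1*, and *tsh4* against *tsh1*, with 95% intervals from limma. Filled points were called and open points were not. *ZmEAR1* and *ZmPUB18* were called lower in both comparisons against *tsh1*, and no gene was called between *tsh1 tsh4* and *tsh4*.

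Whether the mutations add up was asked with the interaction contrast, which subtracts both single-mutant changes from that of *tsh1 tsh4*. None of the 7 genes passed an adjusted p of 0.05 by limma (0.288% of all genes did, 0.179% above and 0.109% below additivity), nor by edgeR or DESeq2, and 1 had an unadjusted p below 0.05. For *ZmPYL5* the single-mutant log2 changes summed to −2.40 and the double mutant changed by −2.41, a difference of −0.01 with a wide 95% interval of −1.12 to 1.09. *ZmICE1* summed to 1.47 beside 1.77 in the double mutant, a difference of 0.30 (−0.31 to 0.92). The gene with the unadjusted p below 0.05 was *ZmCIPK1*, in which the sum of −2.94 was larger in size than the −1.08 of the double mutant. Its interaction was 1.86 (95% interval 0.75 to 2.98), rank 112 of 20168 by size, with a limma p of 0.00272 before and 0.280 after adjustment.

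Genotype accounted for 94.2% of the variance of *ZmEAR1* over the 12 libraries on the log2(CPM + 0.1) scale, 92.3% of that of *ZmICE1*, 89.5% of that of *ZmPUB18*, and 82.3% of that of *ZmPYL5*. The shares were 71.4% for *ZmAHG1*, 70.2% for *ZmZFP7*, and 65.7% for *ZmCIPK1*, against a median of 27.7% over all genes. These 3 genes are those whose calls depended most on single libraries.

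Across the 12 libraries, which share genotypes and are given as a description, Pearson's r between 2 of the 7 genes ran from −0.92 to 0.88 over 21 pairs. *ZmEAR1* and *ZmPUB18*, both low where *tsh4* is mutated, were the most alike (r = 0.88), and *ZmPUB18* and *ZmICE1* the most opposed (r = −0.92). *ZmPYL5* ran against *ZmICE1* (r = −0.80) and *ZmAHG1* (r = −0.77). *ZmCIPK1* was not close to any other gene, with r of −0.50 to 0.38. After the mean of each genotype was subtracted, r ran from −0.73 to 0.60. *ZmEAR1* and *ZmPUB18* then had an r of 0.47 and *ZmPUB18* and *ZmICE1* of −0.49, so the likeness lies largely in the genotype means.

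**Figure D4:**
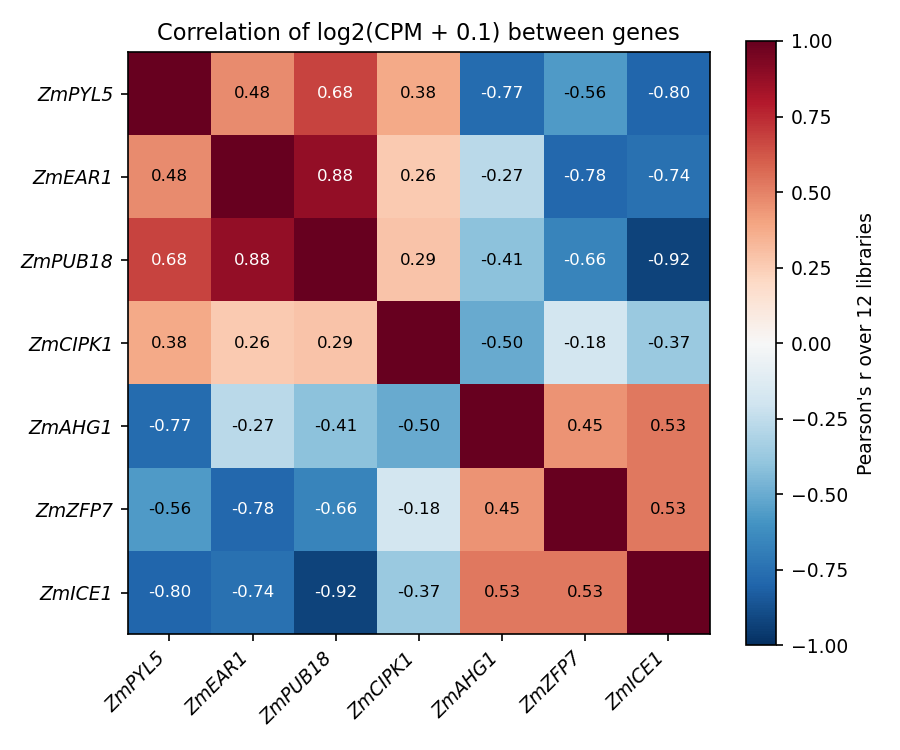
Pearson's r of log2(CPM + 0.1) over the 12 libraries for each pair of the 7 genes (both axes), colored from −1 to 1. *ZmPYL5*, *ZmEAR1*, *ZmPUB18*, and *ZmCIPK1* correlate positively with each other (0.26 to 0.88) and negatively with *ZmAHG1*, *ZmZFP7*, and *ZmICE1* (−0.92 to −0.18). The study named the former as lower and the latter as higher in *tsh* mutants from these libraries, so these signs follow from that choice.

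The genes whose expression ran closest to each of the 7 were taken by r over the 12 libraries among genes with a mean of at least 1 CPM. For *ZmPUB18* they were GRMZM2G025448 (r = 0.98) and GRMZM2G152354 (0.97), with log2 fold changes of −2.96 and −2.58 in *tsh1 tsh4*. *ZmICE1* was closest to GRMZM2G381576 (0.98) and GRMZM2G067373 (0.96), and *ZmEAR1* to GRMZM2G074267 (0.98) and GRMZM2G035999 (0.96). For *ZmZFP7* they were GRMZM2G110195 (0.97) and GRMZM2G128219 (0.95), and for *ZmPYL5* GRMZM2G126239 (0.95) and GRMZM2G020772 (0.94). The nearest genes were less close for *ZmAHG1*, GRMZM2G123909 (0.91) and GRMZM2G162333 (0.90), and for *ZmCIPK1*, GRMZM2G086869 (0.91) and GRMZM2G169871 (0.87).

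To place the 7 genes in the pathway, other genes of ABA-related families were counted, 50 in all and chosen by RefSeq name rather than by change. Many are named for a protein family and not for an ABA function, among them 21 PP2C and 10 CBL or CIPK genes. Counts over the 50 are therefore not counts of ABA genes alone. In *tsh1 tsh4*, 6 of the 50 were called (12%, beside 5.84% of all genes), 1 higher and 5 lower. In *tsh4*, 3 were called (6%, beside 3.81% of all genes), 2 higher and 1 lower. In *tsh1*, 0 were called by limma or by edgeR and 1 by DESeq2, beside 1.16% of all genes by limma. There, 11 of the 50 (22%) had an unadjusted limma p below 0.05, as did 9.3% of all genes. By the same measure it was 22 of the 50 (44%, beside 18.4% of all genes) in *tsh1 tsh4* and 13 (26%, beside 15.3%) in *tsh4*. With signs kept, so that rises and falls offset each other, the median log2 fold change of the 50 genes was −0.06, 0.02, and −0.08 in *tsh1 tsh4*, *tsh4*, and *tsh1*, beside −0.01, −0.01, and 0.00 for all genes. The median size of the log2 fold change was 0.44, 0.26, and 0.29, beside 0.22, 0.20, and 0.17 for all genes. The count in *tsh1 tsh4* was 3 without B73 replicate 3, that in *tsh4* was 1 without B73 replicate 2, and that in *tsh1* was 1 without *tsh1* replicate 2.

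Among the 7 other receptor genes, 1 was called in *tsh1 tsh4* and none in a single mutant. That gene, GRMZM2G057959, is the one RefSeq names PYL5. It was at 1.03, 0.584, and 0.276 CPM in *tsh1 tsh4*, 2.44, 2.55, and 2.77 CPM in *tsh4*, 1.69, 1.33, and 1.24 CPM in *tsh1*, and 3.58, 2.38, and 1.81 CPM in B73, and fell with a log2 fold change of −1.97 (SE 0.34, limma adjusted p = 0.00112). In *tsh4* its log2 fold change was 0.048, beside −1.07 for *ZmPYL5*, and both receptor genes were called lower in *tsh1 tsh4*. The other 6 receptor genes had log2 fold changes of −0.55 to 0.57 in *tsh1 tsh4*.

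Of the 21 other PP2C genes, a family that is wider than its ABA clade, 3 were called in *tsh1 tsh4*. PP2C11 (GRMZM2G308615) was higher (1.45, limma adjusted p = 0.0263), PP2C17 (GRMZM2G040452) was lower (−1.16, adjusted p = 0.000629), and PP2C15 (GRMZM2G300125) was lower (−1.08, adjusted p = 0.0476). PP2C17 was at 13.6, 9.38, and 13.2 CPM in *tsh1 tsh4* and at 21.1 to 32.0 CPM in all other libraries. The single mutants had no call among these genes, with log2 fold changes of −1.11 to 0.93 in *tsh4* and −0.62 to 0.58 in *tsh1*.

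In the kinase modules, SnRK2.5 (GRMZM2G110908) rose in *tsh4* (1.56, SE 0.39, limma adjusted p = 0.0278) and had a log2 fold change of 1.21 in *tsh1 tsh4* that did not pass (adjusted p = 0.0759), and no other of the 7 SnRK2 genes was called. Of 10 genes of the CBL and CIPK module, CBL5 (GRMZM2G041729) fell in *tsh1 tsh4* (−1.25, limma adjusted p = 0.00316), with 2.07, 4.22, and 3.02 CPM against 6.48, 7.15, and 8.05 CPM in B73. CIPK16 (GRMZM2G330049) rose in *tsh4* (1.73, limma adjusted p = 0.0305) at 0.601 to 1.31 CPM against 0.070 to 0.325 CPM in B73.

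At the start of the pathway, vp14 (GRMZM2G014392) encodes the 9-cis-epoxycarotenoid dioxygenase that cleaves the carotenoid precursor of ABA. It fell in *tsh4* (−2.03, SE 0.33, limma adjusted p = 0.00110), with 14, 7, and 16 reads against 105, 64, and 68 reads in B73, and was at −0.79 in *tsh1 tsh4* (adjusted p = 0.204). Among the 4 genes of ABA-responsive proteins, asr1 (GRMZM2G136910) fell in *tsh1 tsh4* (−1.53, SE 0.43, limma adjusted p = 0.0372). The dehydrin gene *rab17*, a widely used ABA-response marker, was not called in any mutant and averaged 0.199, 0.107, 0.334, and 0.230 CPM in *tsh1 tsh4*, *tsh4*, *tsh1*, and B73. At these low levels its log2 fold changes had an SE of 0.51, so moderate changes of *rab17* could not be resolved. Because vp14, CIPK16, PP2C15, and *rab17* fall outside the rule for named genes, they were named after their values were seen.

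**Figure D5:**
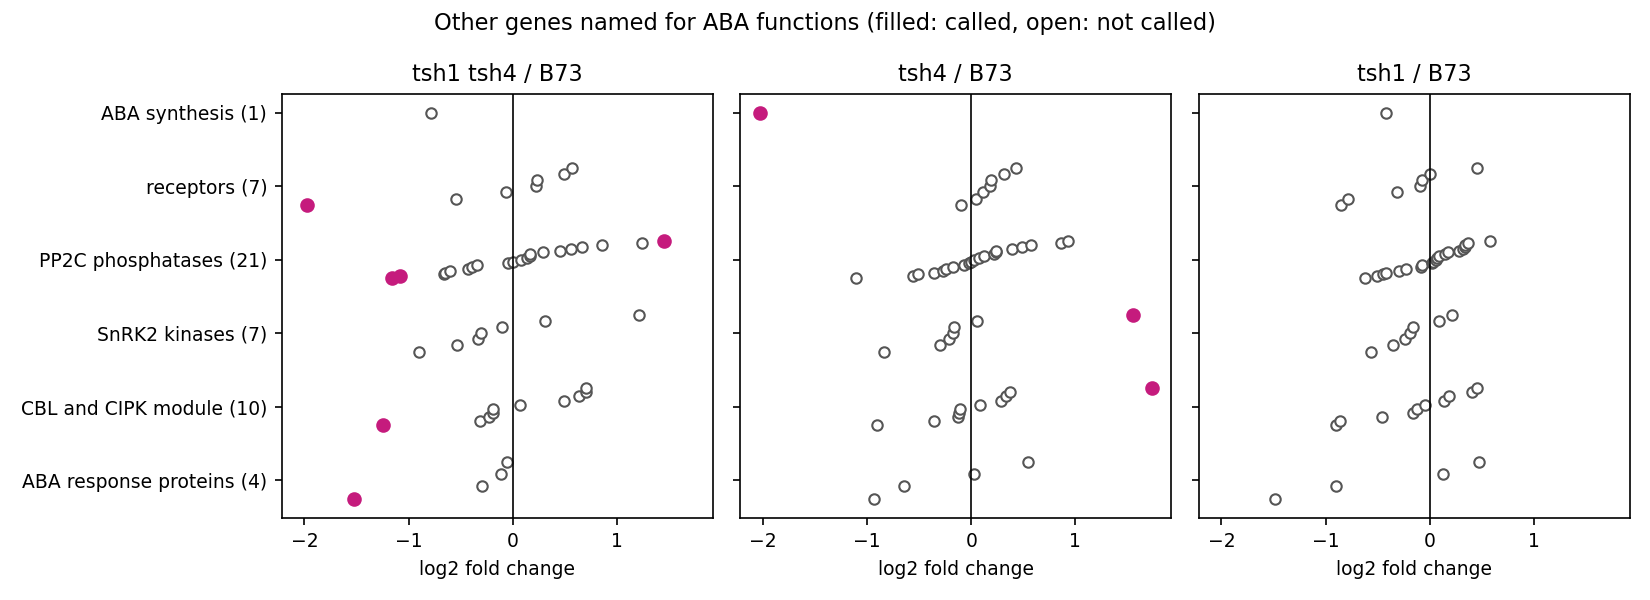
Log2 fold changes on the log2(CPM + 0.1) scale (horizontal axes) of 50 other genes of ABA-related families by RefSeq name, by group with the number of genes (vertical axis), in *tsh1 tsh4*, *tsh4*, and *tsh1* against B73. Filled points were called, 6, 3, and 0 of 50, and open points were not.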

How the data were processed

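Per the methods and the submitters' processing notes, reads were trimmed by the authors (Trimmomatic 0.36), mapped to B73 RefGen_v3 (STAR 2.6.0a), and assigned to genes (featureCounts, strand setting not given in the sources used here). The authors kept genes above 0.25 CPM in at least 3 libraries, and computed TMM-normalized CPM with edgeR 3.22.5. The deposited values are such a signal, rounded to 3 decimals. Dividing them by the CPM worth of a single read gave a whole number for 100% of values within 0.0006 CPM, so that reads could be recovered. RNA was amplified after capture, so that reads are not independent molecules.

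All 12 libraries and 20168 genes entered 1 limma model (version 3.58.1 under R 4.3.3; lmFit, eBayes with trend) of log2(CPM + 0.1) by genotype. Alternatives were pseudocounts of 0.01 and 1, a mean of at least 1 CPM, equal library totals, the recovered reads in edgeR 4.0.16 (quasi-likelihood) and in DESeq2 1.42.0, only the genotypes compared, the replicate number as a block, and leaving out each library. No source used here says that replicate numbers mark shared plants or batches, but deviations of same-numbered *tsh1 tsh4* and B73 libraries from their genotype means correlated above 0.1 in all 3 pairs (0.24 to 0.65), and for no other 2 genotypes did all 3. Genes and lists were chosen with earlier results of these data known. RefSeq symbols (Zm-B73-REFERENCE-NAM-5.0) matched 14381 of 20168 identifiers (71.3%) and 5 of the 7 genes. The planned list was matched on symbols and synonyms, with the abbreviations PP2C, LEA, and ASR added after the table was seen. No U-box ligase, catabolism, or transcription factor gene was matched. Named were the 7 genes, the 2 genes most like each, and up to 2 called genes per list group with a mean of at least 1 CPM. Promoter and protein sequences were not analysed here, and 1 meristem marker is not reported here.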

Additional observations from a re-analysis of the deposited data

How the results depend on the processing

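Of the 7 genes, 6 were called in *tsh1 tsh4* against B73 by limma, edgeR, and DESeq2, and 5 to 7 when single libraries were left out. The count in *tsh4* ran from 2 to 4 over these fits, that in *tsh1* from 0 to 2, that in *tsh4* against *tsh1* from 1 to 3, and that in *tsh1 tsh4* against *tsh1* from 3 to 4. The 2 calls in *tsh1* became 1 by edgeR on recovered reads, 1 with equal library totals, 1 with the 2 genotypes compared alone, and 0 in the fit with a replicate block. Deviations of same-numbered libraries from their genotype means correlated above 0.1 in 10 of 18 pairs (−0.35 to 0.65), and 8 of 12 libraries were closest to one of their own number. With the block, 5 genes were called in *tsh1 tsh4*, where it changed no call but that of *ZmZFP7*, 3 in *tsh4*, and 2 in *tsh4* against *tsh1*. A pseudocount of 1 left 1 call in *tsh4* against *tsh1*, and DESeq2 made 1 call in *tsh1 tsh4* against *tsh4*. *ZmPYL5*, with a mean under 1 CPM, could not be tested under the filter at 1 CPM.

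Among the 50 other listed genes, the count in *tsh1* was 1 by DESeq2, and that in *tsh4* was 1 with the filter at 1 CPM and 1 with a pseudocount of 1. Leaving out single libraries gave 3 to 7 calls in *tsh1 tsh4*, 1 to 4 in *tsh4*, and 0 to 1 in *tsh1*. Over all genes, a pseudocount of 1 gave 650, 414, and 150 calls in *tsh1 tsh4*, *tsh4*, and *tsh1* in place of 1178, 768, and 234, the filter gave 763 in *tsh1 tsh4*, and DESeq2 gave 370 in *tsh1*. For the other contrasts, a pseudocount of 1 gave 385 and 364 calls in place of 727 (*tsh1 tsh4* against *tsh1*) and 679 (*tsh4* against *tsh1*), the filter gave 480 in place of 727 and 85 in place of 136 (*tsh1 tsh4* against *tsh4*), and DESeq2 gave 214 in place of 136 and 157 in place of 58 (interaction).

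Signs turned only for values that were not called. The interaction of *ZmPYL5* was 0.051 with equal library totals and 0.22 with a pseudocount of 1, and that of *ZmPUB18* was 0.072 with a pseudocount of 1. Leaving out 1 library moved the interaction of *ZmPYL5* from −0.24 to 0.34, its change between *tsh4* and *tsh1* from −0.014 to 0.61, *ZmEAR1* in *tsh1* from −0.41 to 0.14, *ZmZFP7* in *tsh1* from −0.29 to 0.64, *ZmAHG1* in *tsh1 tsh4* against *tsh1* from −0.064 to 0.50, and *ZmCIPK1* in *tsh1 tsh4* against *tsh4* from −0.29 to 0.39. Of 588 values of the 7 genes under a left-out library, 538 kept direction and call. Except for the interaction, leaving out a library of a genotype outside the comparison cannot move the change itself, only its p-value. The direction of such values was fixed in advance, so the total overstates how steady the directions were. The cause of the shifts in sign and call was not tested. With 3 libraries per genotype and as few as 6 reads behind a value, small differences could not be resolved.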

Other observations

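Some of the other listed genes differed between the mutants themselves. The gene asr1 (GRMZM2G136910), named for proteins induced by ABA, stress, and ripening, was at 3.94, 1.96, and 2.64 CPM in *tsh1 tsh4* and 10.8, 13.3, and 11.7 CPM in *tsh4*, a log2 fold change of −2.08 (SE 0.43, limma adjusted p = 0.0306). It was at 3.99, 4.85, and 1.13 CPM in *tsh1*, and *tsh4* was above *tsh1* by 2.04 (limma adjusted p = 0.010). Both genotypes with the *tsh1* mutation were thus below *tsh4*. In B73, asr1 was at 12.3, 4.69, and 9.11 CPM, with replicate 2 below *tsh1* replicate 2. Its log2 fold change in *tsh1* against B73 was −1.49 and did not pass (limma adjusted p = 0.121). The receptor gene that RefSeq names PYL5 (GRMZM2G057959) was also lower in *tsh1 tsh4* than in *tsh4* (−2.02, SE 0.34, limma adjusted p = 0.00668), a comparison in which none of the 7 signaling genes was called. SnRK2.5 (GRMZM2G110908) was higher in *tsh4* than in *tsh1* (1.79, SE 0.39, limma adjusted p = 0.0125) and higher in *tsh1 tsh4* than in *tsh1* (1.45, adjusted p = 0.0463).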
